A study of Mus musculus with 12 samples.

Results

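The semaphorins, plexins and neuropilins were followed as 1 family of guidance genes in mouse dorsal root ganglia. Members were every gene symbol of the semaphorin classes 3 to 7, of plexins A to D and of the neuropilins that had at least 10 reads summed over the 6 RNA libraries. Of 44345 symbols in the count files, 31 met that rule, 20 of them semaphorins (the ligands) and 11 plexins or neuropilins (the receptors). All 31 also passed the filter on low counts, among 16819 genes that could be tested.

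Semaphorins are secreted, membrane-spanning or membrane-anchored proteins that steer growing axons, most often by repelling them, and that also act on blood vessels and immune cells. Plexins are their main receptors and act on small GTPases and the cytoskeleton inside the cell, whereas neuropilins bind the secreted class 3 semaphorins and hand the signal to a plexin of the A or D type. In sensory ganglia these proteins shape the paths of developing axons, and after injury of the spinal cord class 3 semaphorins made in the scar are known to repel sensory axons.

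The ganglia came from lumbar levels L4 to L6 of C57BL/6 mice aged 6 to 8 weeks, taken 24 h after a cut through the dorsal columns of the spinal cord (dorsal column axotomy, DCA). The DCA + MS275 group received 12 mg/kg MS275, an inhibitor of histone deacetylases, into the peritoneum at injury and again 2 h before sacrifice, and the DCA + vehicle group received vehicle (Tween80, PEG300 and DMSO) at the same times. Every mouse carried the injury, so the comparison is of the drug within injured animals, and no uninjured ganglion was analysed here. Each of the 3 RNA libraries per group pooled the ganglia of 2 mice, and ATAC-seq, a map of chromatin that a transposase can reach, used 3 samples of 1 mouse each per group, given as 1 pooled list of regions per treatment.

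Reads assigned to genes numbered 34992533 to 56542966 in the MS275 libraries and 39148369 to 60370523 in the vehicle libraries, of which 0.187% to 0.2003% fell on the 31 members. MS275 replicate 1 stood apart on the first principal component (46.6% of the variance), at -40.25 against -14.13 and -4.66 in the other MS275 libraries and 14.48 to 23.26 in the vehicle libraries. It also held 721 CPM (counts scaled to library size, with the trimmed mean of M-values as scaling) of 10 skeletal muscle markers, against 91.8 and 104 CPM in the other MS275 libraries and 7.16 to 61.5 CPM in the vehicle libraries. The 12 sensory neuron markers summed to 24235 to 27059 CPM in MS275 libraries and 23310 to 24350 CPM in vehicle libraries, and 1 of the 12 rose in edgeR, 3 in DESeq2 and 2 in limma voom. In 8 of the 12 the MS275 libraries lay wholly above the vehicle libraries, beside 15.9% of all tested genes, and 6 were higher at an unadjusted p under 0.05 in edgeR. The part of this shift in the members' changes was not tested.

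A few members changed with MS275, 3 of the 20 semaphorins (15%) and 1 of the 11 receptors (9.09%), beside 11% of all tested genes. Sema4d, Sema4a and Sema3f rose by 1.23- to 1.40-fold, and 1 receptor, Plxnb3, fell to 0.713-fold of the vehicle level. These 4 of 31 members (12.9%) stood beside 11% of all tested genes (1849 of 16819) at an adjusted p under 0.05 in edgeR's quasi-likelihood test with Benjamini-Hochberg adjustment over all tested genes, so the share of the family was near that of genes in general. By direction, 9.68% of members rose against 5.1% of all genes, and 3.23% fell against 5.89% of all genes. With 1 library left out, 6 members passed without MS275 replicate 1 (4 of the 4 among them, beside 1875 of all genes) and 6 without MS275 replicate 2 (2 of the 4, beside 2763), and 1 member, Sema4d, passed without MS275 replicate 3 (beside 882) or without vehicle replicate 1, 2 or 3 (beside 375, 261 and 728). With the summed muscle markers as a covariate 0 of 31 passed, beside 19 higher and 6 lower of all genes, and 9 members were higher and 0 lower at an unadjusted p under 0.05 in edgeR. The log2 fold changes in that fit were 0.39 for Sema4d, 0.49 for Sema4a, 0.48 for Sema3f and -0.29 for Plxnb3. The muscle sums did not overlap between groups (91.8 to 721 CPM in MS275 and 7.16 to 61.5 CPM in vehicle libraries). That fit therefore cannot fully tell muscle markers from treatment, and the SE of Plxnb3 was 0.16 in it, against 0.12 without the covariate. The values of the 3 libraries did not overlap between groups in 13 members (41.9%), beside 33.8% of all genes. In 8 of these 13 the MS275 libraries lay above the vehicle libraries (25.8%, beside 15.9% of all genes), and in 5 they lay below (16.1%, beside 17.9%).

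The median log2 fold change, MS275 over vehicle, was 0.05 over the 20 semaphorins, -0.03 over the 11 receptors and 0.00 over all tested genes. Without MS275 replicate 1 it was 0.11 over the semaphorins and 0.01 over the receptors, and without MS275 replicate 3 it was 0.003 over the receptors, so neither the size of the first nor the sign of the second held with 1 library left out. Of the semaphorins, 14 had a value above 0 and 6 below, and of the receptors 5 above and 6 below. All 8 members whose MS275 libraries lay wholly above the vehicle libraries were semaphorins, whereas those wholly below were Sema3a, Sema3c, Plxna3, Plxnb3 and Nrp2. The difference between ligands and receptors was not tested.

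**Figure D1:**
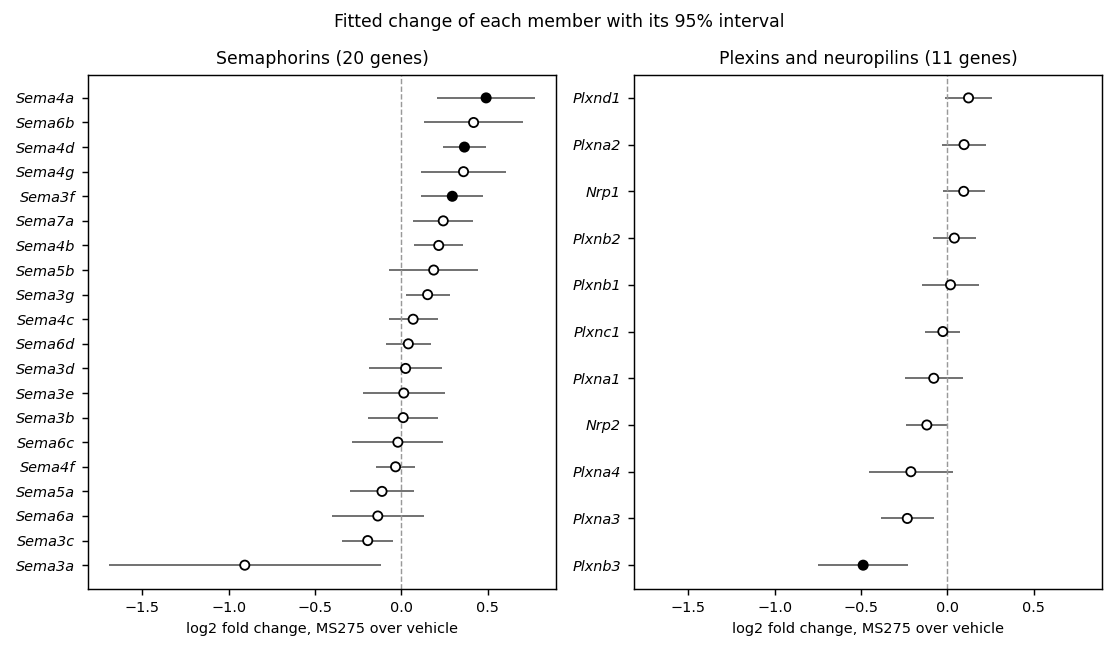
Fitted log2 fold change, MS275 over vehicle, of the 20 semaphorins (left) and 11 receptors (right); points are estimates, bars are 95% intervals and filled points passed adjusted p under 0.05. Sema4a (0.49), Sema4d (0.36) and Sema3f (0.29) are the filled points above 0, and Plxnb3 (-0.49) is the filled point below 0.

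Among the class 4 semaphorins, which span the membrane, Sema4d had the smallest p of the family. Sema4d, known as CD100 on immune cells and a ligand of plexin-B1 and plexin-B2, had 69.5, 74.0 and 77.8 CPM in MS275 ganglia, against 59.7, 53.8 and 58.4 CPM in vehicle ganglia. Every MS275 library lay above every vehicle library. Its log2 fold change was 0.36 (SE 0.06), or 1.29-fold (95% interval 1.18 to 1.41), with an edgeR adjusted p of 0.00734. With any 1 of the 6 libraries left out, Sema4d again passed in edgeR's test, with adjusted p between 0.00246 and 0.047 and a log2 fold change between 0.32 and 0.41.

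Sema4a, a ligand of plexin-D1 and B-type plexins that is also made by immune cells and in the retina, had 13.4, 14.3 and 12.5 CPM in MS275 ganglia, against 7.55, 10.7 and 10.3 CPM in vehicle ganglia. The groups did not overlap, and vehicle replicate 1 was the lowest library. The log2 fold change was 0.49 (SE 0.13), 1.40-fold (95% interval 1.15 to 1.71), with an edgeR adjusted p of 0.0387. Sema4a passed again without MS275 replicate 1 (edgeR adjusted p = 0.0429) and missed the threshold with any other library left out, where the adjusted p lay between 0.0606 and 0.0857.

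The other class 4 members did not pass in edgeR, and DESeq2 passed Sema4b and Sema4g of them (adjusted p = 0.0205 and 0.0235). Sema4b had 47.7, 52.7 and 56.3 CPM in MS275 ganglia, against 45.2, 46.4 and 43.2 CPM in vehicle ganglia, without overlap (edgeR adjusted p = 0.0573). Sema4g had 11.9, 11.6 and 14.2 CPM in MS275 ganglia, against 10.3, 10.5 and 8.502 CPM in vehicle ganglia, also without overlap (edgeR adjusted p = 0.064). Sema4c, a ligand of plexin-B2, and Sema4f had overlapping groups and log2 fold changes of 0.07 and -0.03. The 6 class 4 genes together summed to 296, 319 and 328 CPM in MS275 libraries, against 286, 285 and 286 CPM in vehicle libraries, and their median log2 fold change was 0.29, beside 0.00 over all tested genes.

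Sema4d and Sema4a are also made outside neurons, so the markers of other cells are given beside them. Of 8 lymphocyte markers, 5 passed the filter on low counts. These 5 summed to 2.32 to 5.85 CPM in MS275 libraries and 2.60 to 3.36 CPM in vehicle libraries. Cd3e, Cd3d and Cd8a did not pass the filter, are not in the sum, and were at 0 in 1 or 2 of the 6 libraries. The 11 macrophage markers summed to 83.5 to 106 CPM in MS275 libraries and 80.2 to 88.0 CPM in vehicle libraries, and 0 of the 11 passed in edgeR, DESeq2 or limma voom (0 also at an unadjusted p under 0.05 in edgeR). Neutrophil markers summed to 268 CPM in MS275 replicate 1, 48.1 and 78.6 CPM in the other MS275 libraries and 42.5 to 71.8 CPM in the vehicle libraries, and 0 of 8 passed in edgeR, DESeq2 or limma voom (3 higher at an unadjusted p under 0.05 in edgeR). Endothelial markers summed to 180 to 206 CPM in MS275 libraries, against 142 to 159 CPM in vehicle libraries, and 5 of 10 rose in each of the 3 tools. Of these 10, 9 were higher and 0 lower at an unadjusted p under 0.05 in edgeR. In 7 of the 10 the MS275 libraries lay wholly above the vehicle libraries, beside 15.9% of all tested genes. Markers of mural cells, which wrap small vessels, summed to 345 to 397 CPM in MS275 libraries, against 270 to 314 CPM in vehicle libraries, and 3 of 9 rose in each of the 3 tools. At an unadjusted p under 0.05 in edgeR, 4 of the 9 were higher and 0 lower, and 4 lay wholly above the vehicle libraries. Muscle markers rose in 9 of 10 in edgeR, 6 of 10 in DESeq2 and 0 of 10 in limma voom, and satellite glial markers rose in 1 and fell in 3 of 8 in edgeR. Of the 8 fibroblast markers 1 rose in edgeR, and of the 8 markers of myelinating Schwann cells 0 passed in edgeR, DESeq2 or limma voom. The part of these cells in the members' changes was not tested, and in whole ganglia more cells of a type and more RNA per cell cannot be told apart.

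Of the 7 secreted class 3 semaphorins, only Sema3f passed in edgeR and DESeq2, and 0 passed in limma voom (adjusted p of Sema3f = 0.0552). Sema3f, a repellent that acts through Nrp2 and A-type plexins, had 43.2, 52.4 and 54.3 CPM in MS275 ganglia, against 39.1, 42.0 and 41.0 CPM in vehicle ganglia. MS275 replicate 1 lay closest to the vehicle libraries, and the groups did not overlap. The log2 fold change was 0.29 (SE 0.08), 1.23-fold (95% interval 1.08 to 1.39), with an edgeR adjusted p of 0.0456. Without MS275 replicate 1 it was 0.39 (edgeR adjusted p = 0.00217), and with any other library left out the adjusted p lay between 0.0691 and 0.163.

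Sema3c and Sema3a had values below those of vehicle without passing. Sema3c, which binds both neuropilins, had 20.7, 20.2 and 19.3 CPM in MS275 ganglia, against 24.0, 23.3 and 21.6 CPM in vehicle ganglia, without overlap (log2 fold change -0.20, edgeR adjusted p = 0.088). Sema3a, the best known repellent of sensory axons, was at the edge of detection, with 9, 9 and 5 reads in the MS275 libraries and 15, 18 and 13 reads in the vehicle libraries. That is 0.145 to 0.188 CPM in MS275 ganglia, against 0.295 to 0.328 CPM in vehicle ganglia, a log2 fold change of -0.91 with a wide SE of 0.35 (edgeR adjusted p = 0.125). All 3 MS275 libraries held fewer Sema3a reads than all 3 vehicle libraries, at a depth that gave a 95% interval of 0.309- to 0.92-fold.

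The remaining secreted members had small fitted changes. Sema3g had 44.6 to 47.7 CPM in MS275 ganglia, against 39.1 to 44.2 CPM in vehicle ganglia, without overlap (log2 fold change 0.15, edgeR adjusted p = 0.114). Sema3b, which had 39296 reads, the most of any semaphorin, had 123, 137 and 161 CPM in MS275 ganglia, against 151, 133 and 134 CPM in vehicle ganglia. Its groups overlapped, with a log2 fold change of 0.01 (95% interval -0.19 to 0.21). Sema3d and Sema3e, a ligand of plexin-D1, had overlapping groups and log2 fold changes of 0.02 and 0.01.

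Sema7a and Sema6b lay just outside the threshold in edgeR and passed in DESeq2 (adjusted p = 0.0133 and 0.022). Sema7a, the only mammalian semaphorin held by a glycolipid anchor and one that promotes rather than repels axon growth, had 109, 114 and 135 CPM in MS275 ganglia, against 94.2, 102 and 106 CPM in vehicle ganglia (log2 fold change 0.24, edgeR adjusted p = 0.0755). Sema6b, a membrane semaphorin that acts through A-type plexins, had 9.97, 8.06 and 11.6 CPM in MS275 ganglia, against 7.44, 6.995 and 7.695 CPM in vehicle ganglia (log2 fold change 0.42, edgeR adjusted p = 0.0649). Neither pair of groups overlapped. Of the other class 5 and class 6 members, Sema5b (0.19) and Sema6d (0.04) had log2 fold changes above 0, and Sema5a (-0.11), Sema6a (-0.14) and Sema6c (-0.02) below 0, all with overlapping groups and intervals that held 0.

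**Figure D2:**
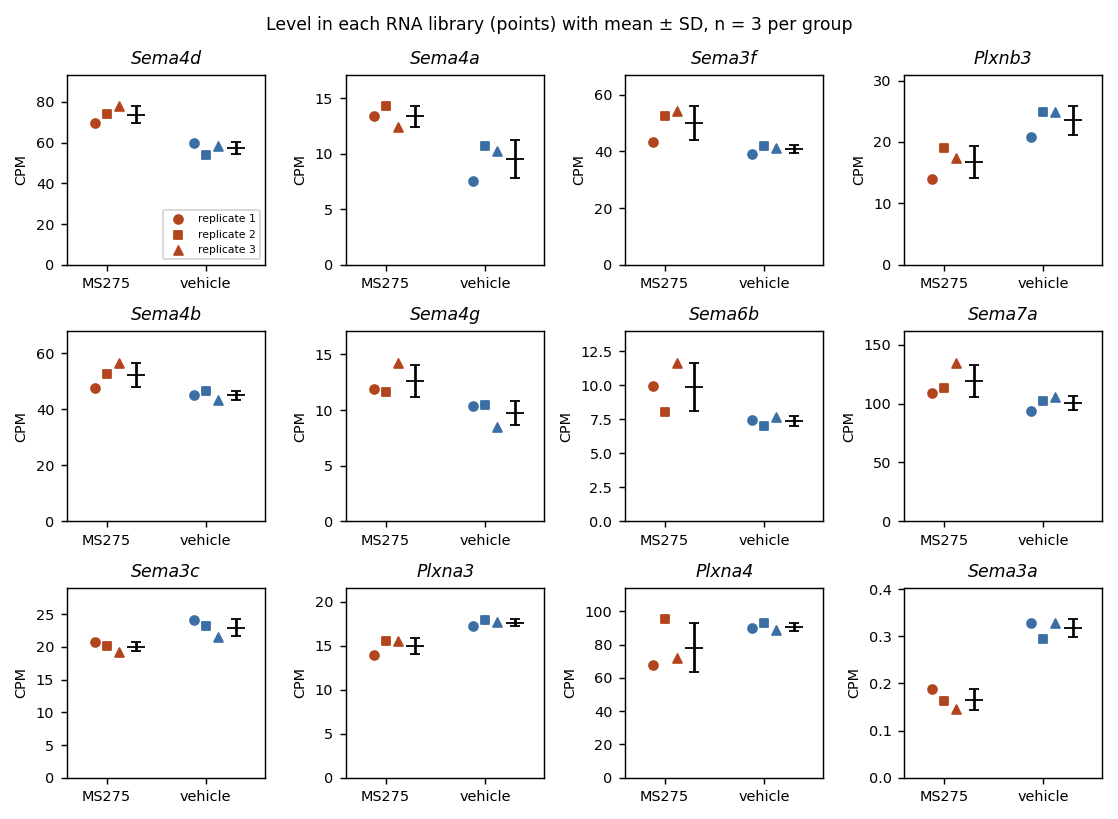
CPM of 12 members in each RNA library (points, with a shape per replicate number), MS275 at the left and vehicle at the right of each panel, with mean ± SD (n = 3 per group). The top row holds the 4 members that passed; Plxna4 is the panel in which the groups overlap, with MS275 replicate 2 at 95.2 CPM.

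Of the receptors, only Plxnb3 passed. Plxnb3, the plexin that binds Sema5a, had 13.9, 18.9 and 17.4 CPM in MS275 ganglia, against 20.8, 24.9 and 24.8 CPM in vehicle ganglia. Replicate 1 was the lowest library of both groups, and the groups did not overlap. The log2 fold change was -0.49 (SE 0.12), 0.713-fold (95% interval 0.595 to 0.854), with an edgeR adjusted p of 0.0295. It passed again without MS275 replicate 1 (log2 fold change -0.36, edgeR adjusted p = 0.026) and without MS275 replicate 2 (0.0131), and with any of the other 4 libraries left out the adjusted p lay between 0.0555 and 0.123.

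The A-type plexins, which carry class 3 and class 6 signals, had a median log2 fold change of -0.15, and 0 of 4 passed in edgeR, DESeq2 or limma voom (1 of 4, lower, at an unadjusted p under 0.05 in edgeR). Plxna3, a partner of Nrp2 in the response to Sema3f, had 14.0, 15.5 and 15.6 CPM in MS275 ganglia, against 17.2, 17.99 and 17.7 CPM in vehicle ganglia, without overlap (log2 fold change -0.23, edgeR adjusted p = 0.0592). Plxna4, a partner of Nrp1 in the response to Sema3a, had 67.5, 95.2 and 72.0 CPM in MS275 ganglia, against 90.2, 93.2 and 88.8 CPM in vehicle ganglia. MS275 replicate 2 lay above every vehicle library and the other MS275 libraries below. Without it the log2 fold change of Plxna4 was -0.38 (edgeR adjusted p = 0.00351), against -0.21 with all libraries (0.228). Plxna1 (-0.08) and Plxna2 (0.10) had overlapping groups.

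The remaining receptors had groups close together. Plxnc1, the receptor of Sema7a, had 106891 reads, the most of any member, and 376, 388 and 353 CPM in MS275 ganglia, against 390, 372 and 375 CPM in vehicle ganglia. Its log2 fold change of -0.03 had a 95% interval of -0.13 to 0.07, so both bounds were smaller in size than the 0.36 of Sema4d. Plxnd1, a receptor of Sema3e that is known from blood vessels, had 162, 162 and 184 CPM in MS275 ganglia, against 165, 151 and 151 CPM in vehicle ganglia (log2 fold change 0.12). Plxnb1 and Plxnb2 had log2 fold changes of 0.02 and 0.04. Nrp1 had 75.1, 86.5 and 79.0 CPM in MS275 ganglia, against 74.3, 75.1 and 76.2 CPM in vehicle ganglia (log2 fold change 0.09). Nrp2 had 33.9, 36.8 and 37.9 CPM in MS275 ganglia, against 39.0, 39.4 and 39.6 CPM in vehicle ganglia, without overlap (log2 fold change -0.12, edgeR adjusted p = 0.179).

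Set beside their textbook partners, the ligands that rose had receptors that did not pass. Of the 11 receptors 1 passed, beside 11% of all tested genes, so a partner that did not pass was the usual case. Only pairs with a member that passed are given here. Sema4d (log2 fold change 0.36) stood beside Plxnb1 (0.02) and Plxnb2 (0.04). Sema4a (0.49) stood beside Plxnd1 (0.12) and Plxnb1 (0.02). Sema3f (0.29) stood beside Nrp2 (-0.12) and Plxna3 (-0.23), and the receptor that fell, Plxnb3 (-0.49), beside its ligand Sema5a (-0.11). Each pair was compared in the same 6 libraries, and differences within pairs were not tested.

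Summed over the family, neither ligands nor receptors separated the groups. The 20 semaphorins summed to 902, 998 and 1037 CPM in MS275 libraries, against 932, 931 and 905 CPM in vehicle libraries, and the groups overlapped. The 11 receptors summed to 965, 1030 and 993 CPM in MS275 libraries, against 1026, 997 and 989 CPM in vehicle libraries, again with overlap. The ratio of the ligand sum to the receptor sum was 0.934, 0.969 and 1.04 in MS275 libraries, against 0.908, 0.934 and 0.915 in vehicle libraries. These sums are not corrected for transcript length, since no exon lengths were used here, so no gene's level is compared with another gene's.

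**Figure D3:**
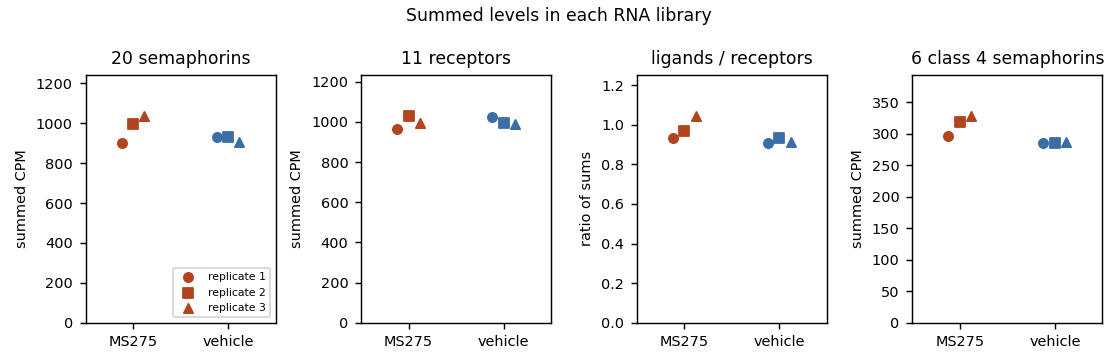
Summed CPM of the 20 semaphorins, the 11 receptors and the 6 class 4 semaphorins, and the ratio of the ligand to the receptor sum, in each RNA library (points), MS275 at the left of each panel and vehicle at the right. The class 4 sums sit between 296 and 328 CPM in MS275 libraries and between 285 and 286 CPM in vehicle libraries, while the receptor sums overlap.

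Of 83 downstream and partner genes of the pathway, in 5 lists drawn from textbook knowledge, 5 rose and 5 fell, beside 5.1% of all tested genes that rose and 5.89% that fell. With 1 library left out, 0 rose and 0 fell without vehicle replicate 2, 1 rose and 0 fell without vehicle replicate 1 or 3, and 3 rose and 2 fell without MS275 replicate 3. Leaving out MS275 replicate 2 gave 8 that rose and 8 that fell. With the muscle covariate 0 rose and 0 fell (7 higher and 5 lower at an unadjusted p under 0.05 in edgeR). Of 17 co-receptors, such as L1cam, Met and Erbb2, 0 rose and 0 fell in edgeR's test, with 0 higher and 3 lower at an unadjusted p under 0.05 and 0 higher and 1 lower in DESeq2. Of 24 regulators and targets of small GTPases, 3 rose and 1 fell. Rras (log2 fold change 0.27), a GTPase switched off by plexins, and Mras (0.21) rose. So did Gipc1 (0.20), an adaptor that binds plexins and Nrp1. Rasa1 (-0.17), which switches off Ras, fell (edgeR adjusted p = 0.0408).

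Of 20 kinases and cytoskeletal effectors, 1 rose and 2 fell in edgeR. Cdk5, which phosphorylates collapsin response mediator proteins, rose (log2 fold change 0.15, edgeR adjusted p = 0.048). The kinase Pak2 (-0.33) and the mitochondrial anchor protein Akap1 (-0.26) fell. In limma voom 0 of the 20 rose and 2 fell, and in DESeq2 3 rose and 3 fell. Of 11 collapsin response mediator and MICAL genes, the redox protein gene Txn1 rose (0.28) and Micall1, which acts in membrane recycling, fell (-0.23). Rras had 50.1, 46.8 and 50.7 CPM in MS275 ganglia, against 39.5, 41.7 and 41.1 CPM in vehicle ganglia (edgeR adjusted p = 0.0123), the smallest p of the 83. Of 11 genes that bind or cut class 3 semaphorins or share their receptors, 1 fell. This was Pcsk5, a protease that trims precursor proteins (-0.32, edgeR adjusted p = 0.0435). The growth factor Vegfa had a log2 fold change of 0.18 (edgeR adjusted p = 0.0752).

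**Figure D4:**
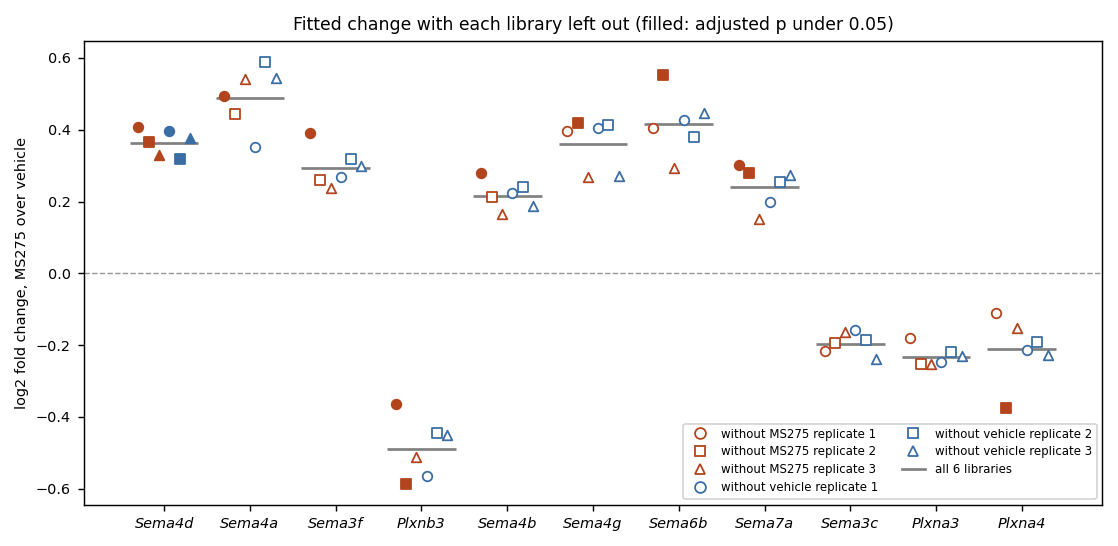
Log2 fold change, MS275 over vehicle, of the 11 members that passed with all libraries or under an alternative, with each RNA library left out in turn (points; filled where adjusted p was under 0.05) and with all 6 libraries (grey lines). Sema4d is filled in all 6 cases, Plxnb3 in 2, and Sema4a and Sema3f in the case without MS275 replicate 1.

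Open chromatin at the members was described from the 2 pooled lists, which allow no replicate test. Over the spans of the 31 genes, the MS275 list held 465 regions and the vehicle list 447, after touching entries were merged. With only regions of −log10 q of at least 5, the direction turned, to 82 in the MS275 list and 110 in the vehicle list. Of all 465 MS275 regions, 49.9% (95% Wilson interval 45.4% to 54.4%) overlapped a vehicle region by at least 1 bp. Of all 447 vehicle regions, 51.0% (46.4% to 55.6%) overlapped an MS275 region. Over all protein-coding genes the shares were 57.8% of 104558 MS275 regions and 50.1% of 119513 vehicle regions. The intervals cover counting error only.

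Together, the long members held more regions in the MS275 list than in the vehicle list when all regions were counted. The split by length was not repeated with only regions of −log10 q of at least 5. At that cut the 31 members together held 82 MS275 and 110 vehicle regions. The 14 members of 100 kb or more held 379 MS275 and 344 vehicle regions, a ratio of 1.10, beside 0.907 for 2429 protein-coding genes of that length. Of these 14, 9 had more regions in the MS275 list, 4 had fewer and 1 had as many. The 17 shorter members held 86 and 103, a ratio of 0.835, beside 0.845 for 19458 genes. Among the long ones, Sema3c had 10 regions in the MS275 list and 3 in the vehicle list, Sema3e 11 and 4, Sema3a 19 and 11, Sema5a 28 and 18, and Sema6d 43 and 30. The 4 with fewer were Plxna4 with 80 and 90, Plxna2 with 46 and 51, Plxnc1 with 29 and 35 and Sema4d with 28 and 31. The vehicle list was longer over the genome, with 177906 merged regions beside 161788 in the MS275 list. Of the members named in this paragraph, Sema4d was the only one that passed in RNA.

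**Figure D5:**
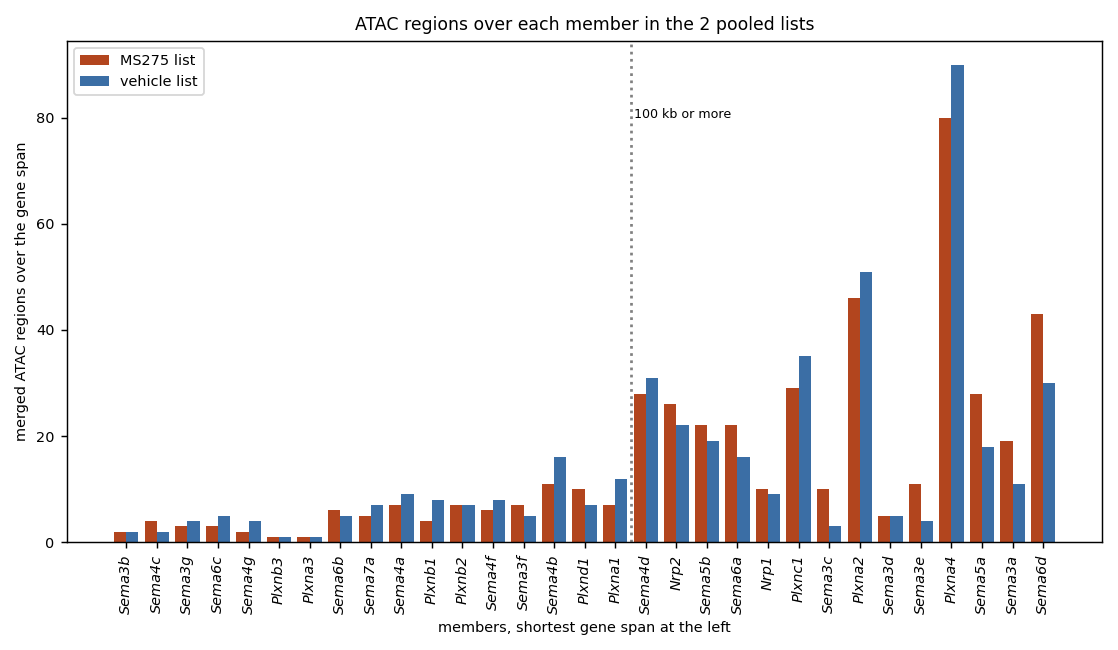
Number of merged ATAC regions over each member's span in the MS275 list (left bar of each pair) and the vehicle list (right bar), ordered by gene span, with the members of 100 kb or more right of the dotted line. Plxna4 (80 and 90) and Plxna2 (46 and 51) hold the most, and the long members Sema3c, Sema3e, Sema3a, Sema5a and Sema6d have the taller MS275 bar.

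At the RefSeq start windows the lists held the same members. Of the 26 members with a start window in the RefSeq table, 25 had a region within 1000 bp in both lists (96.2%), beside 65.5% of 17492 protein-coding genes and 89.2% of the 11122 that were also tested in RNA. No member had one in a single list only. Of the 11122 genes also tested in RNA, 176 had one in the MS275 list only and 269 in the vehicle list only. Over all 17492 genes the shares were 2.42% and 3.76%. These shares are small, so 0 of 26 members lay near that of genes in general. Sema3a, the member with the fewest reads, had none in either list at its only window, which lies 272.0 kb inside the gene. At the 5′ end of Sema3a itself, 1 region lay within 1000 bp in each list. Sema3b, Sema3f, Sema6a, Plxna1 and Plxna4 had no window in the table.

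The members that changed in RNA are given by their regions. Sema4d (chr13:51685529-51793678) held 28 MS275 and 31 vehicle regions. Its strongest MS275 region lay at the 5′ end of the gene (chr13:51793314-51793985, 2.85-fold enrichment as the authors' list gives it) and overlapped a vehicle region of 1.94-fold, while its strongest vehicle region (chr13:51747974-51748948, 2.39-fold) lay inside the gene and overlapped an MS275 region. Of its 3 start windows, 1 had a region in the vehicle list only, and of the 4 windows of Sema4a, 1 had a region in the MS275 list only. Sema4a (chr3:88435959-88461182) held 7 and 9 regions, with a shared one at its 5′ end. Sema3f (chr9:107681499-107710475) held 7 and 5, of which 3 overlapped. Plxnb3 (chrX:73756556-73772510) held 1 in each list, the same one, of 1.48-fold enrichment in the MS275 list and 1.72-fold in the vehicle list. The −log10 q of this Plxnb3 region was low, at 0.611 in the MS275 list and 2.687 in the vehicle list.

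The start windows below are shown because 3 belong to members that changed, 1 holds the strongest start region of the family and 1, inside its gene, has none in either list. Each is 300 bases from RefSeq on GRCm38.p6, read 5′ to 3′ along the gene, from 250 before to 50 after a start, in lower case, with GC boxes (GGGCGG on either strand) in capitals. The Sema4d window (chr13:51748761-51749060, minus strand) is 1 of 3 in the table, all at starts inside the gene, and had 2 MS275 regions and 1 vehicle region within 1000 bp. The Sema4a window (chr3:88461133-88461432, minus strand) lies at the 5′ end of the gene and the Plxnb3 window (chrX:73756853-73757152, plus strand) is its only one. The Sema3c window (chr5:17574566-17574865, plus strand) had a region of 6.19-fold enrichment in the MS275 list and 6.23-fold in the vehicle list, and the Sema3a window (chr5:13396534-13396833, plus strand), at a start inside the gene, had none.
Sema4d: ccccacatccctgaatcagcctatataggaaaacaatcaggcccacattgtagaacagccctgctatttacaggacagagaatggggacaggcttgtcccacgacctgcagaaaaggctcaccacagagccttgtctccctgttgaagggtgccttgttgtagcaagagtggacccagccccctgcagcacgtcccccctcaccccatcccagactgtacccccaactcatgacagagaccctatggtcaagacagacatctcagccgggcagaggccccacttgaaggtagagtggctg
Sema4a: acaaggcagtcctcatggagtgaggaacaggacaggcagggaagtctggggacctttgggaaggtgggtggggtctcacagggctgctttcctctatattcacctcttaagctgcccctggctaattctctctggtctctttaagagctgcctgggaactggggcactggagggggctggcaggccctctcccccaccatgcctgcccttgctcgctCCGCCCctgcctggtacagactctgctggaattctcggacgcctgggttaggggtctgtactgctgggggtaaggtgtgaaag
Plxnb3: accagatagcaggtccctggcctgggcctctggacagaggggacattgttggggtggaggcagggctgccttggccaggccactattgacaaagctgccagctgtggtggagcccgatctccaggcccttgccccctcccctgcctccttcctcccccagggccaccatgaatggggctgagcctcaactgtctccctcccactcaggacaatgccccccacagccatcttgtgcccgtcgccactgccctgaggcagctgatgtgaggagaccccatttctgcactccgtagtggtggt
Sema3c: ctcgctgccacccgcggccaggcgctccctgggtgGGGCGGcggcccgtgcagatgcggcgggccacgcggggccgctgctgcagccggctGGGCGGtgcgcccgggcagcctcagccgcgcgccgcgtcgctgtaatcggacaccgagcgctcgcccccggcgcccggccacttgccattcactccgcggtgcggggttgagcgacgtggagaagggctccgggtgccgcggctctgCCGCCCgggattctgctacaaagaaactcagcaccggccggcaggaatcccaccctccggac
Sema3a: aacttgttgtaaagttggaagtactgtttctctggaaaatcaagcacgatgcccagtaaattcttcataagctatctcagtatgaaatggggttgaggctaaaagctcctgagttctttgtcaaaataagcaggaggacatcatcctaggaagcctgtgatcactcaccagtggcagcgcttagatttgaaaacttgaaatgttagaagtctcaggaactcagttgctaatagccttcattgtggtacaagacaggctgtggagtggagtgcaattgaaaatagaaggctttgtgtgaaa
In letters, the Sema3c window stands apart in CpG from the other windows shown. Windows of the family that are not shown were like it, such as those of Nrp2 (37 CpG, observed over expected ratio 0.992) and Plxnb1 (36, 0.875). GC content runs from 41.3% in the Sema3a window to 75.7% in the Sema3c window. The Sema3c window holds 42 CpG and 3 GC boxes, with an observed over expected CpG ratio of 0.98, whereas the Sema4d, Sema4a, Plxnb3 and Sema3a windows hold 3, 4, 4 and 2 CpG with ratios of 0.13 to 0.16. The median over the 37 windows of the family was 15 CpG and a ratio of 0.579, beside 13 and 0.567 over 21263 windows of protein-coding genes.

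Over the family, a GC box stood in 27 of 37 windows (73.0%), beside 46.2% of all windows. The CCAAT box (CCAAT on either strand) stood in 7 (18.9%), beside 38.2%. The AP-1 motif (TGANTCA) stood in 3 (8.11%), beside 6.99%, and the E-box (CACGTG) in 3 (8.11%), beside 7.84%. The GC content had a median of 63.7% in the family and 56.3% in all windows. The 37 windows belong to 26 genes, so some genes count more than once. All windows include those of genes not tested in RNA, whereas every member was tested, and shares over tested genes alone were not taken. Both strands were searched, none of the 4 motifs contains another, and a match is a match of letters only.

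Some counts may hold reads of a neighbour. Sema3b overlaps the protein-coding gene Lsmem2 and Plxna1 overlaps Gm40415, Sema4d overlaps the RNA gene Gm19281, and Plxna4 overlaps its antisense gene Plxna4os1. The library kit keeps the strand, but whether the counting used it was not stated in the labels, and ambiguous reads made up 0.592% to 0.63% of each library.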

How the data were processed

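RNA counts per gene symbol were deposited by the authors, 1 file per library. Per the submitters' processing notes, STAR 2.7.0, edgeR 3.24.3, limma 3.38.3 and build mm10 were used. How reads were assigned to genes, and with which strand rule, was not stated there. The 5 rows per file that name no gene (18.89% to 20.56% of reads) were left out. ATAC regions were deposited as 1 pooled list per treatment, with the authors' score, ratio (fold enrichment) and −log10 q per region. The peak caller was not stated in the labels. Entries that touched were merged within a list.

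Counts were fitted for all genes with edgeR 4.0.16 (TMM scaling, filterByExpr, quasi-likelihood F-test, Benjamini-Hochberg adjustment, threshold 0.05) in R 4.3.3, MS275 against vehicle, 3 libraries each, after a test on simulated data. DESeq2 1.42.0 and limma 3.58.1 (voom) were alternatives. The biological coefficient of variation was 8.62%. Libraries of a group differed by more than sampling noise (chi-square per degree of freedom 7.238 to 54.04). Names and start windows came from RefSeq tables (GRCm38.p6). Full values are given for members that passed, that any 1 alternative called, or with the most reads; of the pathway lists, genes that passed, at most 4 per list. Members, lists, marker lists and the muscle alternative were chosen with earlier results of these data known. No sequence of chromosome 18 genes is shown.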

Additional observations from a re-analysis of the deposited data

How the results depend on the processing

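Of 495 single-member values under alternatives, 420 kept their direction and their side of the threshold, 25 newly passed, 22 no longer passed and 28 changed sign with neither fit past the threshold; no member that passed changed sign. Sema4d passed in 15 of 16 alternatives (not with the muscle covariate, where its log2 fold change was 0.39 and its adjusted p 0.122), Plxnb3 in 10, Sema4a in 9 and Sema3f in 8. The limits are 3 libraries per group, 1 outlying MS275 library, 1 pooled ATAC list per treatment and, for Sema3a, few reads.

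Members that rose and fell (3 and 1 as reported) numbered 7 and 1 with DESeq2's Wald test, 7 and 1 with no filter beyond 1 count, 1 and 0 at adjusted p under 0.01, 7 and 3 at 0.10, 3 and 3 with library totals, 0 and 0 with a covariate for summed muscle markers (9 and 0 at an unadjusted p under 0.05), and 1 to 5 and 0 to 2 with 1 library left out. The replicate block gave 5 and 1, adding Sema6b (adjusted p = 0.038) and Sema7a (0.0219); same-numbered libraries had correlations of 0.019, 0.111 and -0.061 in their deviations from the group means, and the labels do not say that numbers pair mice. Pathway genes (5 and 5) numbered 8 and 8 with DESeq2, 7 and 8 with no filter, 0 and 0 at 0.01, 11 and 11 at 0.10, 3 and 11 with library totals, 0 and 0 with the covariate (7 and 5 at an unadjusted p under 0.05), and 0 to 8 each with 1 library left out. All tested genes (858 and 991) numbered 1151 and 1145 with DESeq2, 1226 and 1171 with no filter, 981 and 1107 with the block, 165 and 185 at 0.01, 1525 and 1704 at 0.10, 680 and 1724 with library totals, 19 and 6 with the covariate, and 127 to 1388 and 134 to 1375 with 1 library left out, fewest without vehicle replicate 2 and most higher without MS275 replicate 2. The median of the semaphorins was 0.2426 with the covariate and 0.068 to 0.112 with 1 library left out, and that of the receptors 0.0705 and -0.0525 to 0.0144. The causes were not tested.

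Values that changed sign were, with library totals, Plxnb1 -0.0211, Sema3b -0.0281, Sema3d -0.0123 and Sema3e -0.0262, and with the covariate Plxna1 0.1335, Plxna4 0.0148, Sema3d -0.1959, Sema4f 0.0463, Sema5a 0.1344, Sema6a 0.2695 and Sema6c 0.1368. With 1 library left out they spanned -0.1284 to 0.0144 in Plxna1, -0.0328 to 0.0934 in Plxnb1, -0.0018 to 0.0728 in Plxnb2, -0.0525 to 0.0147 in Plxnc1, -0.0947 to 0.0996 in Sema3b, -0.0694 to 0.0827 in Sema3d, -0.1027 to 0.1244 in Sema3e, -0.0617 to 0.0202 in Sema4f, -0.1356 to 0.0913 in Sema6c and -0.0002 to 0.093 in Sema6d. Sema3a was not among the genes tested at a mean of at least 1 CPM.

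ATAC regions with −log10 q of at least 5 numbered 82 in the MS275 list and 110 in the vehicle list, with 73.17% of the MS275 ones shared. The 26 members with start windows were counted over all their windows. At that cut 1 had a start region in the MS275 list only, 1 in the vehicle list only and 2 in neither. With the longer list cut to the length of the shorter by the authors' q, the vehicle list held 404. Within 2500 bp of a start, 26 of the 26 members had a region in both lists and 0 in neither.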
